A study of Rattus norvegicus with 4 samples.

Results

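The tetraspanins are membrane proteins that thread through the membrane several times and gather integrins, proteases and signalling receptors into patches of the cell surface and of secreted vesicles. CD numbers, by contrast, name surface molecules of unrelated families that antibodies first recognised on leukocytes, so that a CD profile is the usual way to tell one blood cell lineage from another. Macrophages are known for tetraspanins such as CD9, CD53 and CD81, for hyaluronan and complement-regulating receptors, and for molecules that restrain or permit the uptake of other cells. The genes described here are the rat genes of both kinds that the array measured: 77 genes with 100 probes, out of 16581 genes with a symbol. They were chosen by symbol, as Cd plus a number with at most one further letter or Tspan plus a number, leaving out Cd14, Cd36, Cd63, Cd68, Cd74 and Cd163. The rule itself uses no measured value, but earlier results of these data were known when the genes were chosen. By symbol 24 of them are tetraspanins and 53 are other CD molecules. The pattern also admits Cd5l, which codes for a secreted macrophage protein and not for a surface molecule.

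RNA came from 4 cultures (replicates 1 to 4) of NR8383, a rat alveolar macrophage line first washed out of a lung. All carried 1 label: exposure to titanium dioxide (NRCWE001) at a dose of 3 cm2/cm2, for 4 h per the series' design text, at passage 20. Unexposed cells, which that text also names, are not analysed here, and no result below is an effect of the particles. Each culture had its own array on 1 slide, so that differences between cultures and between arrays cannot be told apart, and the line is a single cell population, in which fewer expressing cells and less RNA per cell cannot be told apart either.

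The arrays measured one-colour (Cy3) fluorescence. A probe was taken as detected where its signal was flagged as well above background. Between 15314 and 16708 of 45598 probes were detected per array, and no spot was saturated. The 75th percentile of the processed signal, by which each array was scaled, ran from 388 intensity units (replicate 2) to 614 (replicate 3). Of 9 macrophage markers 8 were detected on all 4 arrays, among them Cd68, Csf1r, Spi1 and Lyz2, while Adgre1 was detected on none. Of 8 measured markers of lung epithelium 1 was detected on all 4 arrays (Foxj1) and 1 on some (Krt18).

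Of the 77 genes, 28 (36.4%) passed on every array, against 45.7% of all named genes. A further 5 were detected on 1 to 3 arrays, against 6.06% of all named genes. The other 44 passed on none, against 48.2% of all named genes. Tetraspanins were detected on all arrays in 12 of 24 cases (50.0%) and the other CD molecules in 16 of 53 (30.2%). Each array by itself detected 31, 29, 33 and 30 of the genes on replicates 1, 2, 3 and 4. The 60 probes that no array detected had signals of 2.70 to 14.6 units, where the dimmest detected probe of any gene on an array had 13.5 to 16.6 units, so only an upper bound is known for them. The genes fell into role groups whose detected share ran from 5 of 6 leukocyte tetraspanins to 1 of 7 B cell molecules, as the chart of detection by role shows.

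**Figure D1:**
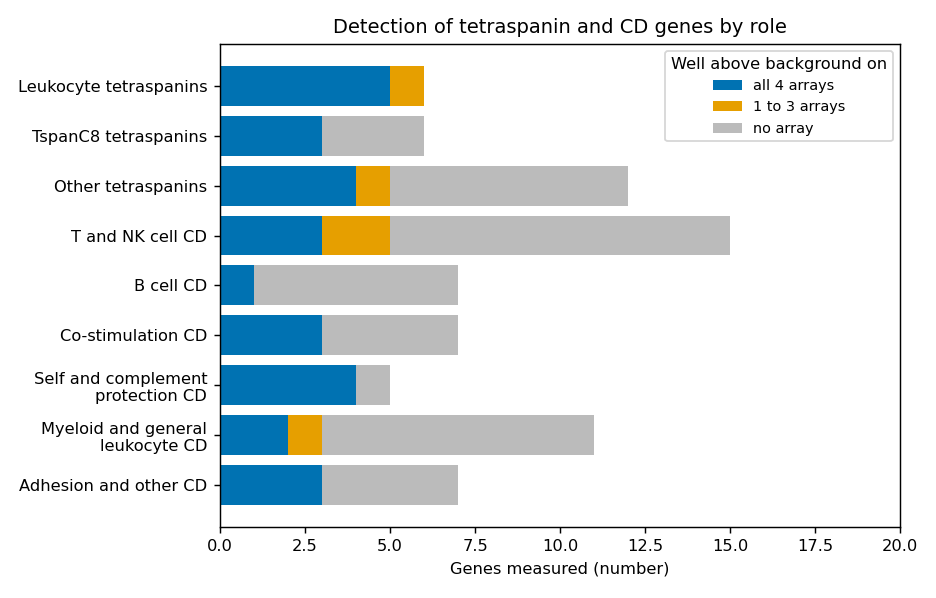
Number of genes measured in each role group (horizontal axis), divided by whether the gene was well above background on all 4 arrays, on 1 to 3 arrays or on none. Leukocyte tetraspanins (5 of 6) and protection molecules (4 of 5) were mostly detected on all arrays. Mostly detected on none were T and NK cell molecules (10 of 15), B cell molecules (6 of 7) and myeloid and general leukocyte molecules (8 of 11). The other groups lay between. Cd5l, which was detected on no array, belongs to no group.

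Before the gene start, detected CD molecules had more CG dinucleotides than undetected ones in the median, and detected tetraspanins slightly fewer than undetected ones. Vertebrate promoters fall broadly into those rich in CG dinucleotides, common among widely used genes, and those poor in them, common among genes of single lineages. In the RefSeq promoter table (GRCr8), which held 60 of the 77 genes, the median number of CG in the 250 bases before the start was 13 for the 12 CD genes detected on all arrays and 4 for the 24 detected on none. For tetraspanins it was 17 for the 9 detected and 18.5 for the 10 undetected genes. Over all named genes the medians were 17 (6118 detected genes) and 5 (5991 undetected genes). At least 10 CG were found before 10 of 12 detected CD genes and 3 of 24 undetected ones, and before 7 of 9 detected and 7 of 10 undetected tetraspanins. Over all named genes the shares were 77.6% of detected and 33.7% of undetected genes, so the share of detected CD genes (83.3%) was near that of detected genes in general. These counts describe the genes and were not tested. The 5 genes detected on 1 to 3 arrays had 2 to 6 CG.

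The range is shown by 4 promoters, chosen after their values were seen, each printed 5' to 3' along the gene with CG in capitals. Cd47, detected on all arrays, had 32 CG at chr11:64438189-64438438 (- strand). Cd53, also detected on all arrays, had 2 at chr2:197087897-197088146 (- strand), the fewest of the detected tetraspanins. Tspan5, detected on no array, had 39 at chr2:229967326-229967575 (+ strand), the most of all 60 genes. Cd2, a T cell adhesion molecule detected on no array, had 2 at chr2:191412660-191412909 (- strand).
Cd47: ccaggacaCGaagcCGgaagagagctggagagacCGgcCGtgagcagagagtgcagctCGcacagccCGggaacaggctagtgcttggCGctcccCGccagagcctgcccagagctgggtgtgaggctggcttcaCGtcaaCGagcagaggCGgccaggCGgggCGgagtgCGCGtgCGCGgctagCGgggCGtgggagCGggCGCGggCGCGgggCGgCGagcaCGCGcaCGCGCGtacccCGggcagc
Cd53: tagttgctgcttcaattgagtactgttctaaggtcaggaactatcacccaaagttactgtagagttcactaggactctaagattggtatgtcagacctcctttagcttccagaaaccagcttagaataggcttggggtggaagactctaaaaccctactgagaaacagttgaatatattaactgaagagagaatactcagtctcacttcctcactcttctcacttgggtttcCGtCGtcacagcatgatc
Tspan5: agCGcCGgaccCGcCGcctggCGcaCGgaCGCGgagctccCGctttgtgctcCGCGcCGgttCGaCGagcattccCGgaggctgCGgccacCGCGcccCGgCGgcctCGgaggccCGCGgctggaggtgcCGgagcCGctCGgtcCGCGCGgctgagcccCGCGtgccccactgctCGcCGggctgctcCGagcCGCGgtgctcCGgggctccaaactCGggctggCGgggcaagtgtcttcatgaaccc
Cd2: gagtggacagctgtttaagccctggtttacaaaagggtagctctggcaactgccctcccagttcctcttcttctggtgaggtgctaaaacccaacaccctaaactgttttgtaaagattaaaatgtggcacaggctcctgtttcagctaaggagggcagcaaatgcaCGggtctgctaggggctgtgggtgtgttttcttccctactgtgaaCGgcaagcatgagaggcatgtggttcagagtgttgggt
The letters GAGGAAGT, of the type bound by the macrophage and B cell factor PU.1, were sought on both strands of these 250 bases. They lay before Cd53, Cd37, Tspan14 and Cd5, that is before 2 of 9 detected tetraspanins, 0 of 12 detected CD genes and 1 of 34 undetected genes of both kinds, against 2.04% of all named genes. The GC box GGGCGG, a site type of widely used promoters, lay before 14 of 21 genes detected on all arrays and 9 of 34 detected on none (66.7% and 26.5%), near the 59.5% and 30.9% of all named genes detected on all arrays and on none. CCAAT and TATAAA were sought as well. CCAAT lay before 4 of the 21 genes and 9 of the 34, against 37.6% and 33.5% of all named genes detected on all arrays and on none. TATAAA lay before 1 of the 21 and 1 of the 34, against 6.55% and 17.3%. A match of letters does not show binding.

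**Figure D2:**
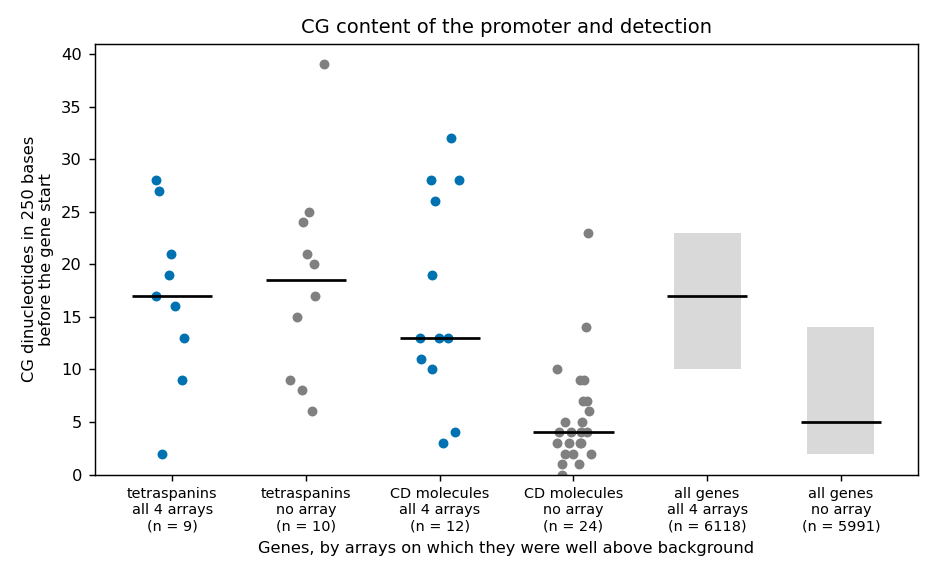
CG dinucleotides in the 250 bases before the gene start (vertical axis) for tetraspanins and CD molecules detected on all 4 arrays or on none. Each point is 1 gene, black lines are medians, and grey boxes span the quartiles over all named genes. Detected CD genes (median 13) lay mostly above undetected ones (median 4), while detected tetraspanins had 2 to 28 (median 17) and undetected ones 6 to 39 (median 18.5).

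Levels are given below in intensity units on each array and, after scaling, as log2 signal relative to the array's 75th percentile, with the SD over 4 arrays. A gene with several probes is represented by its brightest. Brightness depends on the probe, so levels of different genes are not set against each other.

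Of the tetraspanins typical of leukocytes, Cd9, Cd53, Cd81, Cd82 and Cd151 were detected on all 4 arrays. Cd9, a tetraspanin of exosomes and cell fusion, had 1483, 1180, 2023 and 1496 units on replicates 1 to 4 and a level of 1.66 ± 0.05 (SD, n = 4). Its raw signal was highest on the brightest array and lowest on the dimmest, and after scaling the highest array lay 1.08-fold above the lowest. Scaled to the median of detected probes, its SD was 0.19 instead. Cd53, a pan-leukocyte tetraspanin, had 1226, 770 and 938 units on replicates 1, 2 and 4 and 2043 on replicate 3, with a level of 1.27 ± 0.35. Replicate 3 was also the highest after scaling, 1.68-fold above replicate 2. Its probe had 2 spots, which held 2125 and 1964 units on replicate 3 against 768 and 772 on replicate 2. The SD between spots was at most 0.09 within an array, for 1 RNA sample each.

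The other members of this group varied less. Cd81, the tetraspanin of the B cell co-receptor complex, lay at 1.92 ± 0.12 and Cd82, known as a suppressor of metastasis, at -1.37 ± 0.05 (SD, n = 4 each). The low SD of Cd82 rested on the scaling. It was 0.15 when arrays were scaled to the median of detected probes and 0.14 under normexp background correction. Cd151, a partner of laminin-binding integrins, lay at 1.36 ± 0.22. On the 10 spots of its probe the SD within an array was 0.05 to 0.12, below its SD between arrays. Cd37, a tetraspanin of mature B cells, had 26.4 units on replicate 3, where it was detected, and 15.4, 16.9 and 13.8 units on replicates 1, 2 and 4, where it was not. After scaling, replicates 2 and 3 were level, at -4.52 and -4.54, and replicates 1 and 4 lay at -4.96 and -5.08.

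The TspanC8 tetraspanins escort the protease ADAM10 to the cell surface and steer its choice of substrates. Of 6 genes, Tspan10, Tspan14 and Tspan17 were detected on all arrays, and Tspan5, Tspan15 and Tspan33 on none. Tspan10 had 151, 114, 201 and 145 units on replicates 1 to 4 and lay at -1.68 ± 0.06 (SD, n = 4), with an SD of 0.21 instead when arrays were scaled to the median of detected probes. Tspan14 had 134, 81.1, 157 and 87.4 units and lay at -2.12 ± 0.26, higher on replicates 1 and 3 than on replicates 2 and 4, an order that was lost under normexp background correction, where the SD was 0.09. Tspan17 lay at -0.79 ± 0.14 by its brightest probe, and its other probe was also detected on all arrays. Adam10 itself was detected on some arrays only, whereas the related protease gene Adam17 lay at -3.00 ± 0.27.

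Of the remaining 12 tetraspanins, Tspan3, Tspan4, Tspan18 and Tspan31 were detected on all arrays. Tspan3 had 815, 616, 815 and 653 units on replicates 1 to 4 and a level of 0.58 ± 0.16. Tspan4, a marker of migrasomes, the vesicles that moving cells leave behind, had 797, 740, 985 and 996 units and a level of 0.86 ± 0.19, with replicate 4 highest. Tspan18, known from endothelium, had 239, 214, 248 and 171 units and a level of -1.15 ± 0.27, with replicate 4 lowest. Tspan31, which lies beside the cell cycle kinase gene Cdk4 in mammals, lay at 3.27 ± 0.22. Tspan1, known from epithelia, was detected on replicates 3 and 4 at 20.2 and 18.3 units, and not on replicates 1 and 2, at 4.78 and 7.93 units. After scaling, replicates 3 and 4 were still the higher, at -4.93 and -4.67 against -6.65 and -5.61. Tspan2, Tspan6, Tspan8, Tspan9, Tspan11, Tspan12 and Tspan13 failed the background flag on every array.

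Tetraspanins act through partners. Of 9 measured partner genes 7 were detected on all arrays. The immunoglobulin superfamily gene Igsf8, whose product binds CD9 and CD81 directly, lay at 3.61 ± 0.17 (SD, n = 4), while Ptgfrn, coding for the other such partner, was detected on none. Sdcbp, coding for syntenin of the exosome pathway, lay at 4.24 ± 0.14, the integrin gene Itgb1 at 1.34 ± 0.22, Itga6 at -1.48 ± 0.19 and Itga4 at -3.17 ± 0.39. Among tetraspanins outside the symbol rule, Cd63 of late endosomes lay at 5.21 ± 0.10 and Rom1 at -4.60 ± 0.26. Upk1a, known from urothelium, was detected on some arrays, and Upk1b and Prph2 on none.

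The lineage molecules of lymphocytes were mostly not detected, as was also the case for myeloid and general leukocyte molecules (8 of 11 on no array). Of 15 measured T and NK cell molecules 3 were detected on all arrays (Cd4, Cd6 and Cd28) and 2 on some (Cd3d and Cd96). Cd4, the co-receptor for class II molecules that rat macrophages also carry, had 45.6, 44.3, 39.2 and 41.0 units on replicates 1 to 4 and a level of -3.50 ± 0.35 (SD, n = 4). Cd6, a scavenger-receptor-like T cell molecule, had 136, 95.3, 92.4 and 93.4 units and a level of -2.23 ± 0.39, with replicate 1 highest. Cd28, the receptor through which B7 molecules co-stimulate T cells, had 956, 785, 910 and 920 units and a level of 0.89 ± 0.22. Its levels on replicates 1, 2 and 4 were 0.99, 1.02 and 0.98, and replicate 3 was lower at 0.57.

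For all 3 of these genes the detected probe stood beside another that no array detected. The detected probes of Cd28 and Cd4 were designed on predicted transcripts, and their other probes, on the curated transcripts, had 3.50 to 4.48 and 3.23 to 3.79 units. The probes of Cd6 share 1 curated transcript, and the undetected one had 5.86 to 12.7 units. So 1 probe of each gene gives the call, and the calls of these 3 genes were lost where every probe had to be detected. Cd3d, a chain of the T cell receptor complex, had 32.5, 35.4 and 33.6 units on replicates 1 to 3, where it was detected, and 19.04 on replicate 4, where it was not. Its partner chains Cd3e and Cd3g, and Cd247, were detected on none. Cd96, a receptor for Pvr, was detected on replicates 1 and 3 at 19.2 and 22.7 units, against 14.3 and 14.2 units on replicates 2 and 4, where it was not. After scaling, its replicates 2 and 3 were level, with -4.65, -4.76, -4.76 and -5.04 on replicates 1 to 4. Cd2, Cd5, Cd7, Cd8a, Cd8b, Cd27 and Cd226 failed the background flag on every array.

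Of 7 B cell molecules Cd24 was the one detected. Cd24, a small mucin-like protein that also shields cells from phagocytosis, had 246, 293, 266 and 331 units on replicates 1 to 4 and a level of -0.77 ± 0.38 (SD, n = 4), with replicate 2 highest and replicate 3 lowest after scaling. The B cell molecules Cd22, Cd38, Cd72, Cd79b and Cd180 were detected on none.

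Of 7 co-stimulatory molecules Cd83, Cd274 and Cd276 were detected on all arrays. The classical molecules by which antigen-presenting cells activate T cells, Cd40, Cd80 and Cd86, and Cd70, failed the background flag on every array. Cd83, a marker of dendritic cell maturation, had 2587, 1954, 2823 and 2531 units on replicates 1 to 4 and a level of 2.35 ± 0.11 (SD, n = 4), so it differed little between arrays. Cd274, coding for the inhibitory ligand PD-L1, had 62.9, 49.5, 107 and 35.2 units and a level of -3.04 ± 0.50. This was the largest SD of the 28 genes, with replicate 3 lying 2.32-fold above replicate 4 after scaling. It was 0.20 under normexp, where replicate 3 was not the highest, and 0.25 without replicate 4. Cd276 (B7-H3), another member of that family, lay at 1.37 ± 0.20. The 2 spots of its probe differed within an array (SD 0.17 to 0.26), and the same spot was the brighter on every array. It had 1210 against 1026 units on replicate 1 and 1675 against 1296 on replicate 4. Such a steady offset is not comparable with the SD between arrays. Pdcd1, Ctla4 and Cd40lg, which code for binding partners of these molecules, were detected on none. Icos, a T cell co-stimulatory receptor of another ligand, lay at 1.71 ± 0.12.

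Molecules that protect a cell from uptake or complement were detected in 4 of 5 cases. Cd47, the ligand that restrains phagocytes through SIRPA, had 2485, 2679, 4097 and 3065 units on replicates 1 to 4 and a level of 2.65 ± 0.19 (SD, n = 4), with replicate 1 lowest after scaling at 2.37, against 2.72 to 2.79 on the other three. Its other probe, also detected on all arrays, had its lowest level on replicate 4 instead, at -0.06, and lay at 0.36 on replicate 1. The probe that was low on replicate 1 was printed in column 17 of the array, and the other one in column 121. Cd55, the decay-accelerating factor, had 117, 100, 201 and 135 units and a level of -1.85 ± 0.19, with replicate 3 highest. A probe detected on 3 arrays and the other 2 detected on all arrays also had replicate 3 highest, and 1 more was detected on none.

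Cd59b, which blocks the complement pore, had 614, 397, 838 and 439 units on replicates 1 to 4 and a level of 0.19 ± 0.26. It was higher on replicates 1 and 3 than on replicates 2 and 4. Cd200, whose product quiets myeloid cells through CD200R, lay at -0.78 ± 0.13. The receptor genes of these ligands were detected too, with Sirpa at 5.07 ± 0.10 and Cd200r1 at -2.84 ± 0.15 (SD, n = 4 each). Cd46, another complement regulator, was not well above background by any of its 3 probes.

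Of 11 myeloid and general leukocyte molecules Cd48 and Cd302 were detected on all arrays. Cd48, a GPI-anchored ligand of CD2 and related receptors, had 281, 208, 545 and 291 units on replicates 1 to 4 and a level of -0.63 ± 0.32 (SD, n = 4). Replicate 3 lay 1.66-fold above replicate 2 after scaling, and a second probe, printed in column 152, had replicate 3 highest by 0.57 above its mean. Cd302, a C-type lectin-like receptor of macrophages, had 2182, 1693, 2872 and 2038 units and a level of 2.17 ± 0.05, a low SD that rested on the scaling, since it was 0.20 when arrays were scaled to the median of their detected probes. Cd300a, an inhibitory receptor for phosphatidylserine, was detected on replicates 1, 3 and 4 at 18.05, 22.9 and 20.6 units, and not on replicate 2, at 14.1 units. After scaling, replicate 2 was close to replicates 1 and 3, with levels of -4.73, -4.79, -4.75 and -4.50 on replicates 1 to 4. The lectin genes Cd209a, Cd209d, Cd209e and Cd209f, and Cd52, Cd69, Cd101, Cd300e and the secreted Cd5l, were detected on none.

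Adhesion and other molecules were detected in 3 of 7 cases. Cd44, the hyaluronan receptor, had 6098, 3745, 6282 and 5753 units on replicates 1 to 4 and a level of 3.48 ± 0.20 (SD, n = 4), with replicate 2 lowest. On the 10 spots of its probe the SD within an array was 0.04 to 0.12. Cd164, a sialomucin of endosomes and progenitor cells, had 1970, 2249, 4293 and 2742 units and a level of 2.48 ± 0.32. On replicate 1 its spots disagreed, with 1297 units in column 17 and 2994 in column 144, whereas on replicate 3 they had 4484 and 4109 units. Without replicate 1 its SD was 0.15. The probe of Cd47 that was low on replicate 1 lay in column 17 as well. The second Tspan17 probe in that column lay 0.11 above its mean on replicate 1. Whether position played a part was not tested. By the first spot of each probe, 16 genes lay in columns 1 to 72 and 12 beyond, and 2 of each were lowest on replicate 1. The spots of Cd164 and of Cd53 lay on both sides of this line, so the split does not separate such probes by position. Cd320, the receptor for vitamin B12 bound to transcobalamin, lay at 1.49 ± 0.17. Cd34, Cd93, Cd99 and Cd248, known from progenitors, vessels and stroma, were detected on none.

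**Figure D3:**
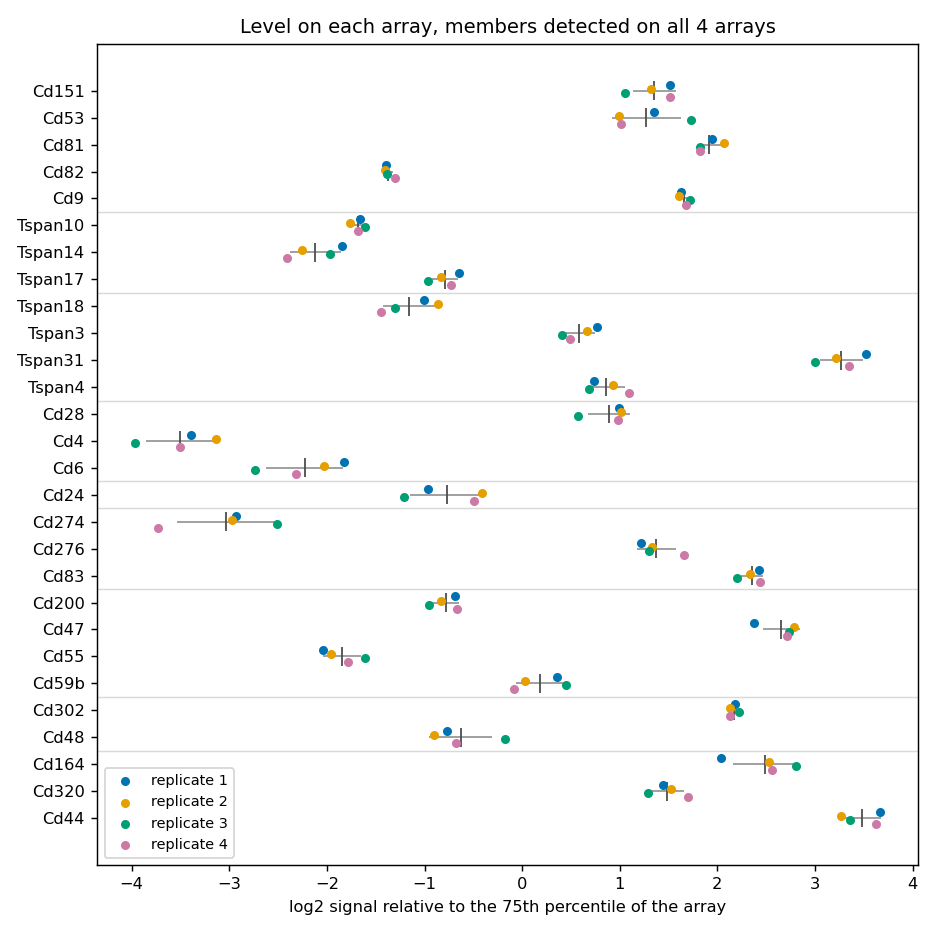
Log2 signal relative to the array's 75th percentile (horizontal axis) of the 28 genes detected on all 4 arrays, grouped by role. Points are single arrays, vertical ticks the mean and grey lines the mean ± SD over 4 arrays. On this scaling Cd9, Cd82 and Cd302 lay within a narrow range, and Cd274 and Cd6 spread the most.

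No gene of the 28 passed the test of spread between arrays as reported here. Under normexp background correction 2 passed, against 197 of 7568 genes tested. They were Cd47 (limma adjusted p = 0.0127) and Cd164 (limma adjusted p = 0.0468). Each gene's variance over the 4 arrays was tested against limma's prior variance. The prior was fitted on the 7570 genes whose brightest probe was detected on all arrays. At an adjusted p under 0.05 limma called 0 of 28, against 27 of 7570 genes (0.357%). At an unadjusted p under 0.05 there were 6 of 28, against 6.47% of all genes tested. These were Cd53 (limma adjusted p = 0.386), Cd24 (adjusted p = 0.447), Cd164 (adjusted p = 0.491), Cd274 (adjusted p = 0.581), Cd48 (adjusted p = 0.668) and Cd6 (adjusted p = 0.758). Of these 6, Cd53 is a tetraspanin. The median SD was 0.20 on the log2 scale over the 28 genes, against 0.16 over all genes tested. It was 0.18 over the 12 tetraspanins and 0.21 over the 16 CD molecules, with no test of the difference. Without replicate 3 the median SD was 0.15 over the 28 genes, against 0.14 over all genes. In that fit 1 of the 28 had an unadjusted limma p under 0.05, against 442 of 7580 genes tested.

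**Figure D4:**
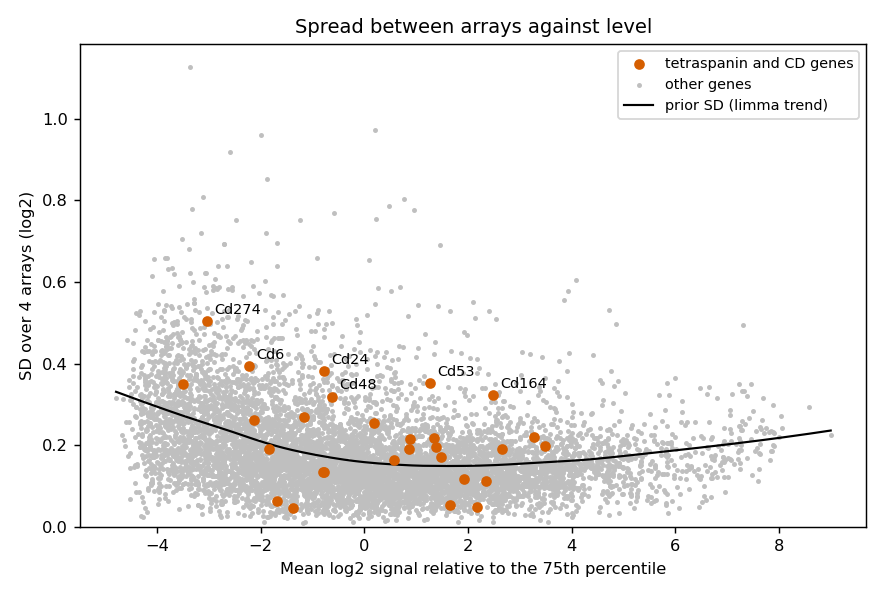
SD over 4 arrays (vertical axis, log2) against mean log2 level for the 28 genes and all other genes tested. The line is limma's prior SD for each level. The 6 named genes had an unadjusted p under 0.05, and no gene of the 28 passed after adjustment.

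Which array was extreme depended on the scaling. As scaled here, replicate 3 was the lowest for 13 of the 28 genes, against 43.4% of all genes tested, and the highest for 9, against 20.1%. Replicate 1 was the lowest for 4 genes, against 19.8%, replicate 2 for 7, against 18.9%, and replicate 4 for 4, against 18%. Replicate 1 was the highest for 7, against 27.7%, replicate 2 for 6, against 21.2%, and replicate 4 for 6, against 31%. Scaled to the median of detected probes, replicate 3 was the lowest for 4 genes, against 5.14% of all genes tested, and replicate 2 for 15, against 57.3%. Under normexp replicate 3 was the highest for 5, against 11.4% of all genes tested. Replicate 1 was so for 9, against 36.8%, and replicate 2 for 9, against 30.3%. A single array stood apart from the rest in 2 of the 28 genes (Cd28 and Cd47), against 5.43% of all genes tested. Cd48, Cd53, Cd55 and Cd164 were highest on replicate 3 under all 5 scalings tried. Cd4, Cd6, Cd24 and Cd28 were lowest there under all 5. The share of all genes tested that kept an end under all 5 was not counted. The percentile and median scalings differ only by a constant for each array, so the 5 are not independent. On that array Cd53 and Cd48 each lay 0.46 above their mean of the 4 arrays, while Cd6 lay 0.51, Cd4 0.47 and Cd24 0.44 below theirs. The median deviation on replicate 3 was -0.11 over the 28 genes, against -0.07 over all genes tested, and it changed sign, to 0.09 and 0.13, when arrays were scaled to the median of their detected probes. The 4 cultures carried 1 label, so these differences belong to no condition.

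**Figure D5:**
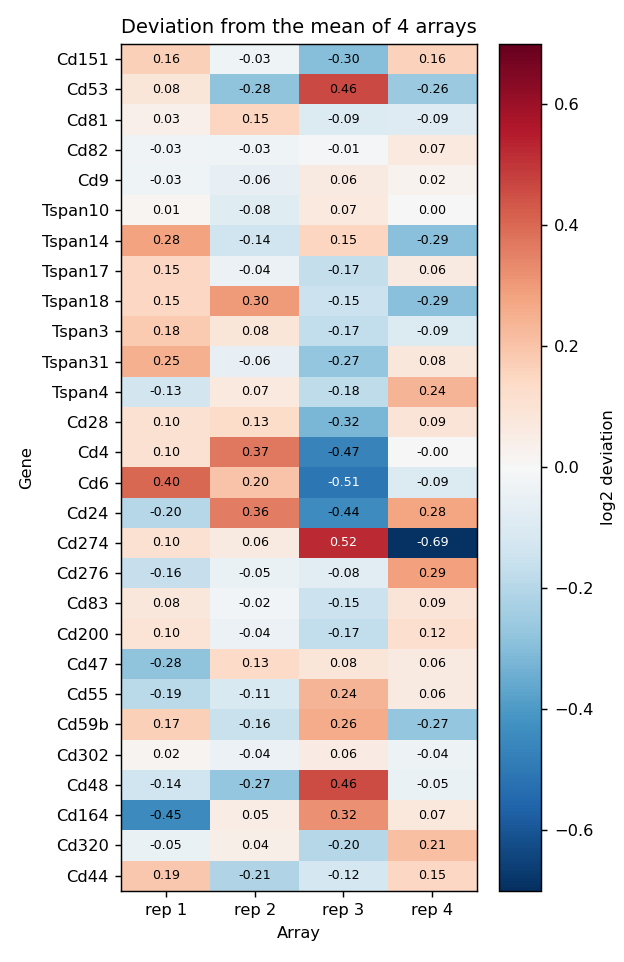
Log2 deviation of each array from the gene's mean of 4 arrays, for the 28 genes detected on all arrays, in the order of their role groups. Red is higher and blue lower. On replicate 3 Cd53, Cd274 and Cd48 were high, and Cd4, Cd6 and Cd24 low.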

How the data were processed

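The deposited files hold, for each spot, the intensity after Agilent Feature Extraction 11.0.1.1 had taken off background and corrected trends across the slide surface, per the file headers and, for the tool, the submitters' processing notes. No scaling between arrays had been done. The flag for signal above background and the median spot and background signals came from the same files.

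Spots flagged as outliers were left out, and log2 signals were averaged over a probe's spots. From these the 75th percentile of 58717 spots that are not controls was subtracted, array by array. RefSeq's GRCr8 gene table named 21109 of 45598 probes through their accession. The grid carries an older build, so no gene coordinates are given except those of RefSeq's promoters. A probe was detected where over 0.5 of its spots were flagged as well above background. One detected probe sufficed for a gene.

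Variances (3 degrees of freedom) were tested in R 4.3.3 with limma 3.58.1 against a trended, robust prior (16.7 degrees of freedom), adjusted by the Benjamini-Hochberg method over all genes. The test was checked on simulated data. Tables were made with Python 3.11.15. The number of arrays limits the precision. All arrays share 1 slide and scan. Replicates are described as biological in the series' design text.

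Protein sequences were not used here. Genes are named, except 1 that is not reported here by name. Values on each array are given for the first 2 detected genes of a role group, its largest SD, genes detected on 1 to 3 arrays and genes where 1 array stood apart. The genes and lists were chosen with earlier results of these data known. Alternatives were other scalings, normexp with an offset of 50, other detection rules, other priors, the mean over probes, inclusion of flagged spots, and omission of 1 replicate at a time.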

Additional observations from a re-analysis of the deposited data

Results flagged for a closer look

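In 2 of the 28 genes detected on all arrays, a single array lay far from the rest. The gap to the nearest array, divided by the gene's whole range, was above Dixon's critical value. Chance gives about 1 in 20, and 5.43% of all genes tested stood apart in this way. For Cd28 the ratio was 0.924, with replicate 3 low at a log2 level of 0.57, against 0.98 to 1.02 on the others. Under other scalings the ratio was 0.925 (75th percentile over distinct probes), 0.843 (quantile normalization), 0.393 (median of detected probes) and 0.399 (normexp). For Cd47 it was 0.835, with replicate 1 low at 2.37, against 2.72 to 2.79 on the others, and 0.519 to 0.875 under the same 4 alternatives. The gene's other probe was not low on replicate 1.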

How the results depend on the processing

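The numbers of genes detected on all arrays stayed within 1.5 times the reported ones under every detection rule tried. For all 77 genes they ran from 24 where every probe had to be detected to 35 with the lenient flag. Of 16581 named genes, 6693 and 9160 passed under these 2 rules. The range was 12 to 14 for tetraspanins and 12 to 21 for the other CD molecules. Calls of more variable genes among the 28 were 0 by limma under the other scalings planned, priors, probe and flag rules and omitted replicates tried, with 1 to 6 at an unadjusted p under 0.05, except normexp, where there were 2. They were not made with the 75th percentile over distinct probes or with the lenient or every-probe detection rules. The 2 genes called under normexp were Cd47 (limma adjusted p = 0.0127) and Cd164 (limma adjusted p = 0.0468), both lowest on replicate 1. Over all settings their adjusted p ran up to 0.997 and 0.986. Among all genes 27 were called in the reported fit, 0 after quantile normalization (449 at an unadjusted limma p under 0.05), 0 when scaled to the median of detected probes (396), 0 without a trend in the prior (437), 4 without robust estimation and 197 with normexp, and the cause was not tested. Leaving out each replicate in turn gave 8 (without replicate 3), 9 (without replicate 4), 39 (without replicate 1) and 84 (without replicate 2). The median level of the 28 genes was 0.72, and 3.51 after quantile normalization, 1.80 when scaled to the median of detected probes and 3.51 with the 75th percentile over distinct probes, a scaling added after the data had been seen, as these move the zero point of all genes. Their median SD ran from 0.15 to 0.22. Single levels moved by more than their SD for 15 of the 28 genes under normexp and for 5 with the mean over detected probes. No paired analysis was possible because the samples form 1 group. The dimmest detected probe of an array had between 13.5 units (replicate 1) and 16.6 units (replicate 3), which leaves the 44 undetected genes with an upper bound only.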

Other observations

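Some of the genes lie next to each other in the genome, by the order of coding genes in RefSeq's GRCr8 table. The tetraspanin genes Cd82 and Tspan18 are neighbours, and both were detected on all 4 arrays, as were Cd151 and Tspan4, with 1 coding gene between them. Cd5 and Cd6 are neighbours too, and Cd6 was detected on all arrays by 1 of its probes while Cd5 was detected on none. Next to Cd3d, detected on 3 arrays, lie Cd3e and Cd3g, detected on none. Tspan9 and Tspan11, Cd8a and Cd8b, and Cd34 and Cd46 are pairs of neighbours of which neither was detected on any array.

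Although Cd22, Cd72 and Cd79b were not well above background, 3 of 5 measured B cell genes outside the CD names were detected on all arrays. Pax5, the transcription factor that fixes B cell identity, lay at a log2 level of -1.85 ± 0.15 (SD, n = 4), Ebf1, another B lineage factor, at -3.25 ± 0.26, and Fcrla, an Fc receptor-like gene, at 2.15 ± 0.06. Blk and Blnk were detected on none. Among T cell genes outside the CD names Lck was detected on all arrays, at -3.22 ± 0.16, Il7r on some and Zap70 on none.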
